A study of Mus musculus with 9 samples.

Results

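Rab GTPases are the small GTP-binding proteins that mark the membranes of the cell. Their genes were taken here as those whose platform-annotation symbol is Rab followed by a number and at most 1 letter and 1 further digit, which leaves out Rab effectors and regulators. The rule found 59 genes among 18193 named on the array, measured by 132 probe sets. A probe set is a group of short probes against 1 stretch of transcript, and its value is a MAS5 signal, a linear brightness in arbitrary units. The probe set with the highest mean log2(signal + 12) stood for each gene. Of the 59 genes, 50 were bright enough to be tested, as were 12347 of all genes.

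The RNA came from EYFP-positive granulocyte-macrophage progenitors (GMPs), the marrow cells from which neutrophils and monocytes arise. Donor cells of all groups carried Cebpa-Cre, a recombinase driven from the Cebpa locus, and the reporter R26-LSL-Eyfp, so the sorted cells are those in which this Cre had been active. They were fetal liver cells of embryonic day 13.5, injected into C57BL/6 recipients 6 to 8 weeks old that had been irradiated with 8.5 Gy, and marrow was taken 6 to 10 weeks later. The 3 groups of 3 arrays are labelled Dicer wild type, Dicer heterozygous deletion (given in the study's design as Dicer -/wt) and Dicer null (given as Dicer fl/fl, that is, both copies of Dicer1 floxed). The genetic background label is 1 string for all groups and does not set the wild-type donors apart. Dicer1 encodes the ribonuclease that makes mature microRNAs. The labels give the cells of a fetal liver as typically going to more than 1 recipient and do not say which arrays share a donor, so the p-values rest on the spread of these samples alone, and some of that spread may be technical.

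A Rab protein works as a switch. Loaded with GTP by an exchange factor (GEF), it sits on 1 kind of membrane through its prenyl anchors and recruits effectors such as tethers and motor adaptors; a GTPase-activating protein (GAP) turns it off, and GDI extracts it for another round. Different Rabs serve the route from endoplasmic reticulum (ER) to Golgi, early endosomes, recycling to the cell surface, late endosomes and lysosomes, and the release of stored granules. In myeloid cells these steps carry phagosomes to lysosomes and granules to the surface, and Rab27a is the member best known for granule release in neutrophils.

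Signals of Dicer1 were 244, 228 and 223 on the wild-type arrays, 169, 201 and 187 on the heterozygous arrays and 115, 101 and 97.2 on the null arrays. On wild-type replicate 2 Xist read 2609.6 and the Y-linked Eif2s3y 1.13, whereas the other 8 arrays read 16.4 to 30.2 and 622 to 859. The labels call every sample female, which only wild-type replicate 2 matches, and the labels do not say whether donor or recipient is meant. All 12 GMP markers listed were bright enough to test, Cd34, Kit, Cebpa, Fcgr3 and Mpo among them. Markers of other cell types were also bright enough to test, 4 of 6 for B cells, 3 of 7 for T and NK cells, 3 of 5 for erythroid cells and 5 of 7 for megakaryocytes and platelets. Their summed signals on the wild-type arrays were 1191 to 1443, 1181 to 1222, 69.5 to 456 and 122 to 312. Those below the level tested were Cd79a and Pax5, Cd3e, Cd3g, Cd3d and Gzma, Hba-a1 and Alas2, and Vwf and Ppbp. In a bulk sample, fewer cells of a type and less RNA per cell cannot be told apart.

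In null against wild-type GMPs 4 Rab genes rose and 0 fell. They were Rab12, which acts in the transport of recycling endosome cargo to lysosomes, Rab14, which works between Golgi, endosomes and phagosomes, Rab6a, of retrograde transport to and within the Golgi, and Rab8b, of transport to the cell surface. Over all 12347 genes 15.7% were called in this comparison, 7.6% higher and 8.09% lower, and over the 50 Rab genes 8% were called, all higher (limma, Benjamini-Hochberg adjusted p under 0.05). The share of Rab genes called higher is near that of all genes, so the count of rises does not set the family apart. Whether the 0 falls differ from the 8.09% of all genes was not tested. At an unadjusted p under 0.05 there were 16 Rab genes beside 29% of all genes, 9 of them higher (12.8% of all genes) and 7 lower (16.1%). The median difference of the 50 genes was 0.05 on the log2(signal + 12) scale, beside -0.04 for all genes tested, and -0.01 without wild-type replicate 2.

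Rab12 had the largest difference of the 50. Its signals were 119, 129 and 132 in wild type, 130.4, 128 and 118 in heterozygous and 216, 255 and 285 in null cells. Every null value lay above every other value, while wild type and heterozygous overlapped. The rise over wild type was 0.92 on the log2 scale, a 1.89-fold change (SE 0.11, limma adjusted p = 0.000127), and it remained past the threshold when any 1 array was left out (adjusted p up to 0.000933). A dimmer probe set of Rab12, with means of 16.8, 16.4 and 9.09 in wild-type, heterozygous and null cells, gave -0.43 (adjusted p = 0.53 over probe sets).

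Rab14 signals were 3231, 2941 and 2905 in wild type, 2596, 3003 and 2873 in heterozygous and 4174, 3907 and 3995 in null cells, again with the null arrays apart from all others. It rose by 0.41 (SE 0.07, adjusted p = 0.00186), and in every fit without 1 array too. Of its 7 probe sets 4 rose in null against wild type in a fit over probe sets, by 0.33 to 0.56, and the other 3 gave 0.08, -0.22 and -0.48, none past the threshold.

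Rab6a signals were 608, 712 and 544 in wild type, 630.5, 708 and 833 in heterozygous and 785, 872 and 1005 in null cells. The null values lay above the wild-type values, and the heterozygous values overlapped both. It rose by 0.51 over wild type (SE 0.12, adjusted p = 0.012), but did not pass without wild-type replicate 3 (0.0569) or null replicate 3 (0.059). Its 2 dimmer probe sets gave 0.16 and 0.13 and were not called. Rab8b signals were 1626, 1407 and 1501 in wild type, 1395, 1458 and 1587 in heterozygous and 1879, 1750.3 and 2023 in null cells. The null arrays were the highest, and the rise of 0.32 (SE 0.08, adjusted p = 0.0183) did not pass without wild-type replicate 2 (0.0702), wild-type replicate 3 (0.053) or null replicate 3 (0.0853). When each gene was taken as the average of its probe sets, none of these 4 passed, with adjusted p-values of 0.51 for Rab12, 0.17 for Rab14, 0.0676 for Rab6a and 0.0577 for Rab8b. The average includes probe sets below the level tested. Such a set is the second of Rab8b, with mean signals of 3.22, 4.82 and 6.03 in wild-type, heterozygous and null cells.

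**Figure D1:**
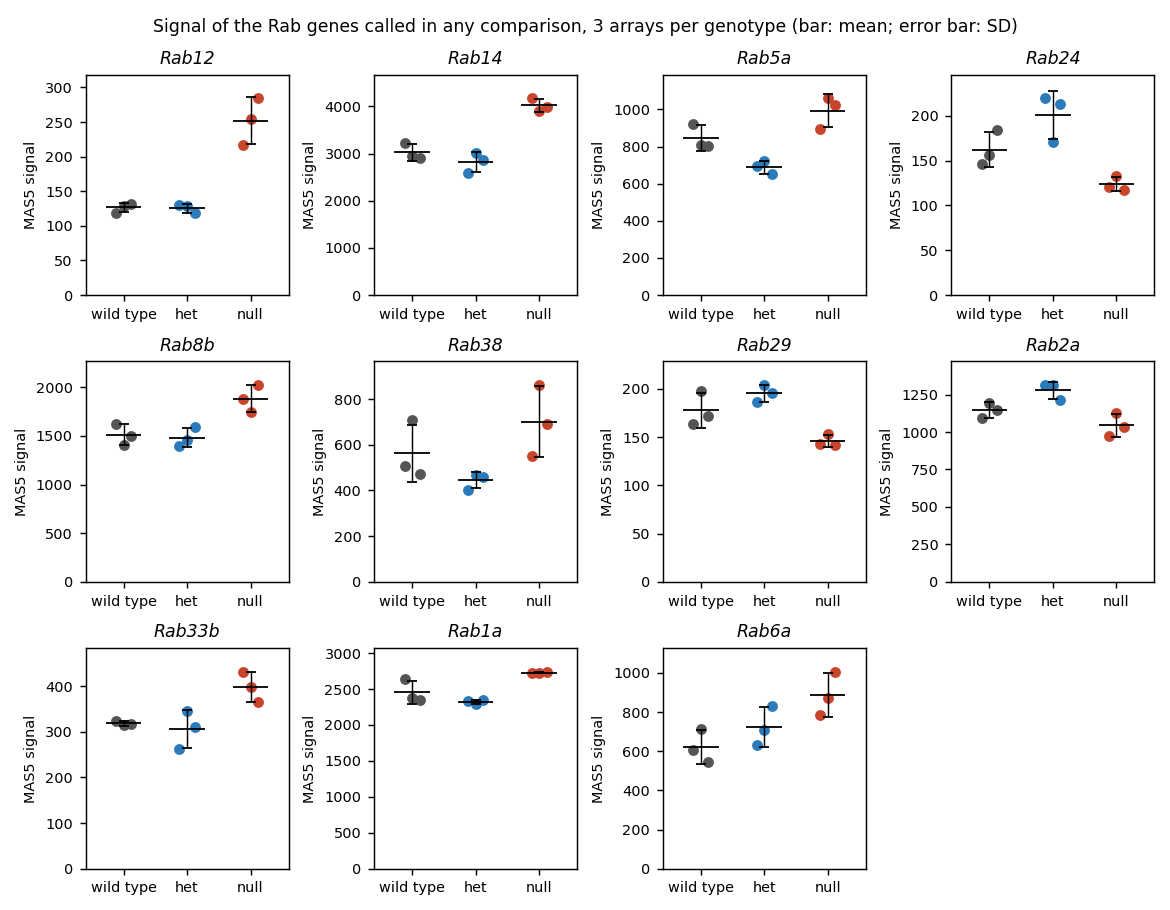
MAS5 signal (vertical axes, arbitrary units, from 0) of the 11 Rab genes called in any comparison, by genotype, with 1 point per array, the mean as a bar and the SD as an error bar. The null arrays stand above all others for Rab12 and Rab14 and below all others for Rab24 and Rab29.

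The promoters of the 4 genes that rose together over wild type are printed from windows of 250 bases before a start in the RefSeq table of promoters (GRCm38.p6), 5′ to 3′ on the strand of the gene, with each GC box (GGGCGG or its reverse complement) in capitals. The last 80 bases of the Rab12 window and the last 11 of the Rab6a window lie within the gene's span in the RefSeq gene table and are left out, so 170 and 239 bases are shown.
Rab12, chr17:66519751-66519920, minus strand: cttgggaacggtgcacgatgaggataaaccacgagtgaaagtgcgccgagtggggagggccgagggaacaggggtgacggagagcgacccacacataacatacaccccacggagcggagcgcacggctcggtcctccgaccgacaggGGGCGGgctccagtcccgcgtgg
Rab14, chr2:35201121-35201370, minus strand: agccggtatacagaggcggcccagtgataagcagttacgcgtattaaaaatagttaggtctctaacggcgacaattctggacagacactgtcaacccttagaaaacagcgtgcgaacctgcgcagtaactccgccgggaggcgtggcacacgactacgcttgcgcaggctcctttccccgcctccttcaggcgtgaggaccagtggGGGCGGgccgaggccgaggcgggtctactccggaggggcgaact
Rab6a, chr7:100607336-100607574, plus strand: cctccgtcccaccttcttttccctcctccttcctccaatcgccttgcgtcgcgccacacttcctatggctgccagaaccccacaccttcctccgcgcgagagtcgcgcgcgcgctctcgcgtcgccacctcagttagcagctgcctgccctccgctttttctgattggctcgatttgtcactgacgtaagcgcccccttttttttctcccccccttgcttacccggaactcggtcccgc
Rab8b, chr9:66919706-66919955, minus strand: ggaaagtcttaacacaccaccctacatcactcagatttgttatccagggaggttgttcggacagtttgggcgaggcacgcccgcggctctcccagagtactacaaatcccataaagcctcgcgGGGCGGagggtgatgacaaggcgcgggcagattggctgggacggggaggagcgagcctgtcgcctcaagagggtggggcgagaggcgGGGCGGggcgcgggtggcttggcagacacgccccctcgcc
In the full windows, Rab8b held 2 GC boxes, Rab12 and Rab14 1 each and Rab6a 0. CCAAT, searched on both strands, occurred 2 times before Rab6a, 1 time before Rab8b and 0 times before Rab12 and Rab14, and the E-box CACGTG in none of the 4. A GC box was held by 32.7% of the 32851 windows of this length in the table, CCAAT by 33.8% and CACGTG by 6.02%. The 4 windows were 60% to 67.6% G and C, beside a median of 52.4% over all windows and of 60.2% over the 60 windows that matched 48 of the Rab genes. Of those 60 Rab windows, 66.7% held a GC box, 40% CCAAT and 8.33% CACGTG. These matches describe letters in a window and are not evidence of binding.

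The remaining 46 Rab genes tested against wild type had differences of -0.60 to 0.48, with a smallest adjusted p of 0.0609. Among the 14 ER and Golgi members tested, Rab6a was the only one called, and the others ran from -0.45 (Rab34) to 0.31 (Rab33b). Rab1a, which serves transport from the ER to the Golgi, gave 0.15, and its close relative Rab1b gave -0.33, neither called. Of the 12 recycling and cell surface members tested, 3 were called higher (Rab12, Rab14 and Rab8b), beside 7.6% of all genes. Rab12 and Rab14 also serve other routes, as described above, so this count depends on how the roles were assigned. Whether this group differs from the other Rab genes was not tested. The other 9 members of the group ran from -0.28 (Rab13) to 0.48 (Rab11b). Rab8a, the close relative of Rab8b, gave -0.11 (SE 0.11, adjusted p = 0.538). The difference between the 2 relatives was not tested.

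None of the 7 early endosome members tested passed. Rab5a, which drives fusion of early endosomes, gave 0.23 (SE 0.09, adjusted p = 0.1001), Rab5c 0.07 and Rab5b -0.07. Rab17, known from transport in epithelial cells, had signals of 33.8, 38.4 and 30.6 in wild type and 19.6, 22.4 and 21.4 in null cells, values that do not overlap, with a difference of -0.48 and an adjusted p of 0.0646. Such separation of the 3 values from the 3 others was found for 18 of the 50 Rab genes (36%), beside 33% of all genes tested.

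None of the 5 late endosome and lysosome members tested passed against wild type either, with differences from -0.36 (Rab24) to 0.19 (Rab7b). Rab7, the Rab of late endosomes and phagosome maturation, had signals of 1243, 1066 and 1175 in wild type, 1097, 1133 and 1229 in heterozygous and 1113, 1189.9 and 1167 in null cells. The 3 genotypes overlapped, with a null against wild type difference of -0.003 (SE 0.08).

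Of the 8 members of regulated secretion and lysosome-related organelles tested, 0 were called against wild type by limma, and 1 had an unadjusted p under 0.05. Rab27a had signals of 1296, 1055 and 1295 in wild type, 1273, 1274 and 1429.7 in heterozygous and 1231, 1256 and 1320.4 in null cells. The groups overlapped, and its difference was 0.07 (SE 0.09, adjusted p = 0.675). Rab44, a large Rab described in mast cell degranulation, had signals of 412, 473 and 450.3 in wild type, 354, 377 and 340.4 in heterozygous and 408, 377 and 285 in null cells. The wild-type values were the highest, and the differences from them, -0.32 for null and -0.31 for heterozygous cells, did not pass (adjusted p = 0.0784 and 0.268). Without null replicate 1 the former was -0.42 and passed (adjusted p = 0.0382). Other members passed against wild type with 1 array left out. Rab38 passed at 0.49 without wild-type replicate 2 (0.0422) and Rab11b at 0.66 without wild-type replicate 3 (0.0266). Rab33b passed at 0.31 without heterozygous replicate 1 (0.0355) and Rab18 at 0.31 without null replicate 2 (0.0476). Rab11b also passed under cyclic loess normalization, at 0.55 (0.0482). The dimmer probe sets of Rab11b gave 0.03 and 0.17 in null against wild type and were not called (adjusted p = 0.93 and 0.629 over probe sets). Rab33b also passed with the filter at the 60th percentile (0.0489) and with only the 2 groups compared (0.0498). In the group without a shared route, Rab42 gave the lowest difference of the family, -0.60 (adjusted p = 0.0665), from signals of 28.03, 15.8 and 17.2 to 10.9, 8.64 and 7.70.

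The 9 members left untested were Rab3b, Rab3c, Rab6b, Rab9b, Rab20, Rab25, Rab26, Rab30 and Rab40b. Their signals ran from 0.214 to 19.0 over all arrays, and whether they stood above background is unknown. The standard errors of the 50 tested members ran from 0.07 to 0.26, with a median of 0.13.

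**Figure D2:**
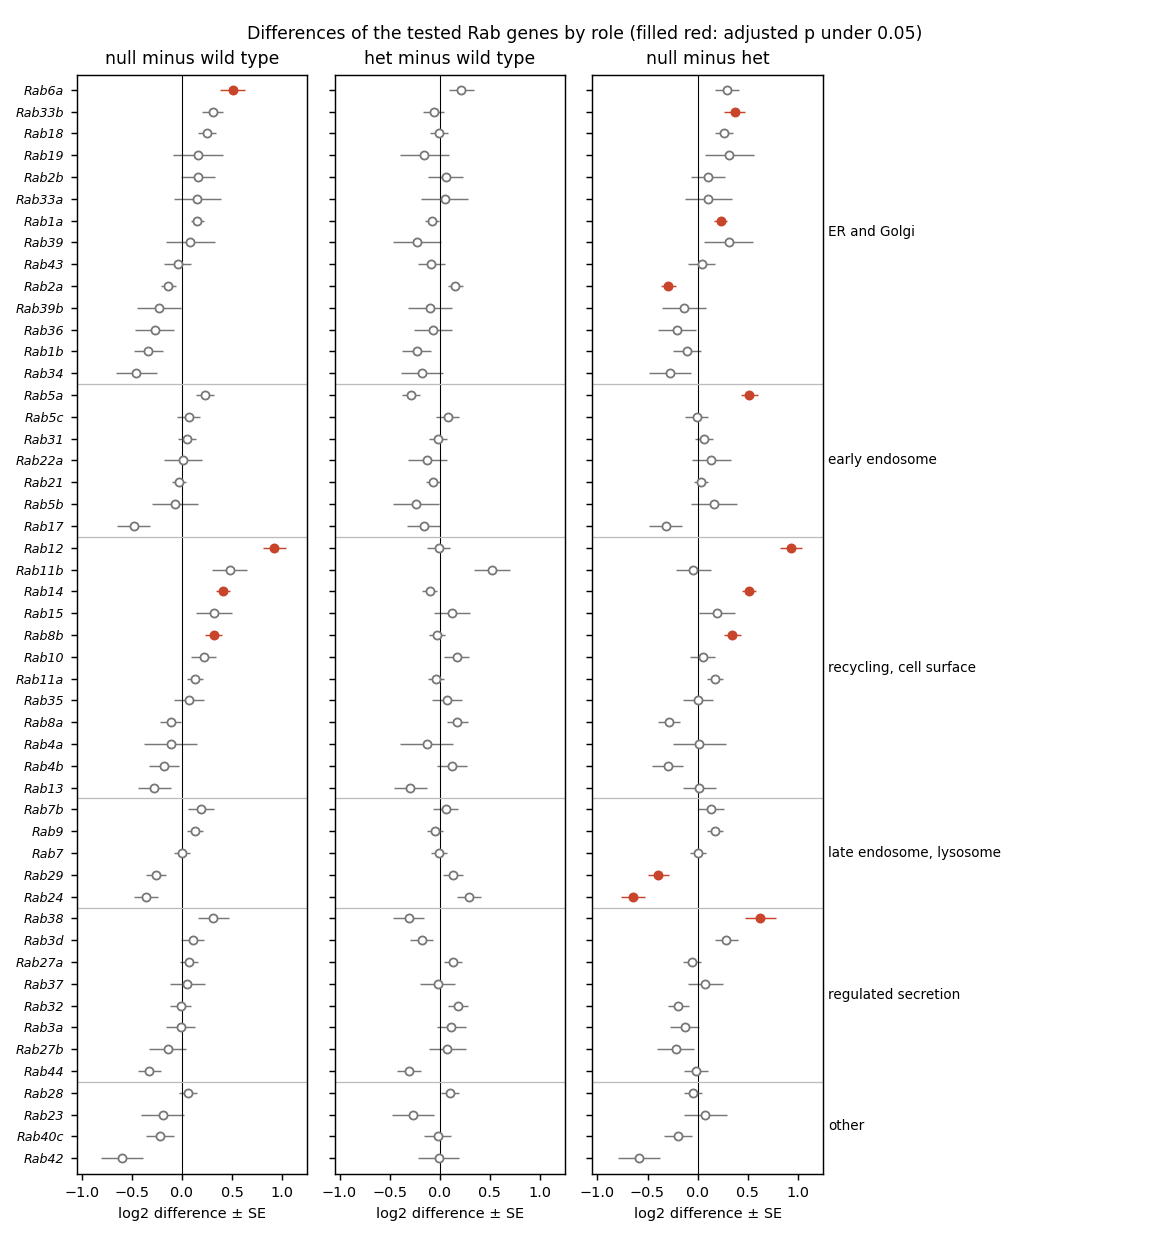
Log2 differences (horizontal axes, with SE) of the 50 tested Rab genes, grouped by role, in null against wild type, heterozygous against wild type and null against heterozygous cells. Filled red points passed at an adjusted p under 0.05: 4 in the first panel, 0 in the second and 10 in the third.

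Heterozygous and wild-type GMPs differed in 0 Rab genes by limma, while 1.39% of all genes were called, 0.697% higher and 0.697% lower. Differences ran from -0.31 (Rab38) to 0.52 (Rab11b), with a smallest adjusted p of 0.153 (Rab5a). At an unadjusted p under 0.05 there were 4 Rab genes (8%), beside 12.9% of all genes tested, 2 of them higher (6.08% of all genes) and 2 lower (6.83%). The 3 against 3 values did not overlap for 9 Rab genes (18%), beside 18.3% of all genes. Rab11b, of the recycling endosome, had signals of 77.5, 46.97 and 93.4 in wild type, 96.5, 114 and 109 in heterozygous and 95.7, 111 and 101 in null cells, so the wild-type values were the lowest and wild-type replicate 2 was the lowest of all. Its dimmer probe sets gave -0.05 and 0.06 in heterozygous against wild type (adjusted p = 0.948 and 0.944 over probe sets).

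In null against heterozygous GMPs 7 Rab genes rose and 3 fell, 20% of the 50 tested, beside 14.3% of all genes. The rises made up 14% of Rab genes and 6.84% of all genes, and the falls 6% and 7.49%. At an unadjusted p under 0.05 there were 16 Rab genes (27.9% of all genes), 11 higher (12.6%) and 5 lower (15.3%), and for 21 (42%) the values of the groups did not overlap, beside 32.7% of all genes. Rab12 (0.93, SE 0.11, adjusted p = 0.000144), Rab14 (0.51, SE 0.07, adjusted p = 0.000513) and Rab8b (0.35, SE 0.08, adjusted p = 0.0125) were called here too. This comparison uses the same null arrays as the one with wild type, so it is not independent of it. Rab8b did not pass without heterozygous replicate 1 (0.0565) or null replicate 3 (0.0604). With probe sets averaged, none of the 3 passed: Rab12 gave 0.28 (adjusted p = 0.462), Rab14 0.10 (0.489) and Rab8b 0.23 (0.119). Of the 7 Rab14 probe sets, 2 rose against heterozygous in the fit over probe sets, by 0.51 and 0.55. The others ran from -0.49 to 0.35 and were not called. Among them, a set that rose by 0.33 over wild type gave -0.02 against heterozygous. Rab18 at 0.32 (0.043) and Rab3d at 0.39 (0.0455) passed only without null replicate 2.

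The other rises were in Rab5a, Rab38, Rab33b and Rab1a. Rab5a had signals of 924, 809.8 and 803 in wild type, 697, 720.1 and 651 in heterozygous and 893, 1061 and 1025 in null cells. The heterozygous arrays were the lowest, and null and wild type overlapped. Null exceeded heterozygous by 0.52 (SE 0.09, adjusted p = 0.00182), in every fit without 1 array as well, and heterozygous against wild type gave -0.29 (adjusted p = 0.153).

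Rab38, a Rab of melanosomes and related organelles, had signals of 507, 707 and 472 in wild type, 404, 468 and 461 in heterozygous and 551, 862 and 693 in null cells. Heterozygous values were the lowest here too, and the wild-type values overlapped those of null cells, with a null against wild type difference of 0.31 (adjusted p = 0.207) that became 0.49 (0.0422) without wild-type replicate 2. Null exceeded heterozygous by 0.63 (SE 0.16, adjusted p = 0.0165), and did not pass without heterozygous replicate 1 (0.0777) or null replicate 2 (0.0667). The dimmer probe set of Rab38 gave 0.44 in this comparison and was not called (adjusted p = 0.0639 over probe sets). Averaged over its probe sets Rab38 gave 0.53 (adjusted p = 0.0487). Rab33b, a Golgi Rab that binds the autophagy protein Atg16l1, had signals of 324, 315 and 316 in wild type, 263, 346 and 310.1 in heterozygous and 431, 399 and 365 in null cells. The null values were the highest. The difference from heterozygous was 0.37 (SE 0.11, adjusted p = 0.0295), lost without heterozygous replicate 1 (0.127) or 3 (0.0604) or null replicate 1 (0.11) or 2 (0.0665). Rab1a had signals of 2642, 2378 and 2351 in wild type, 2329, 2290.0 and 2350.1 in heterozygous and 2729, 2717 and 2738 in null cells. The null values were the highest and closest together, and their difference from heterozygous was small, 0.23 (SE 0.07, adjusted p = 0.0312), and did not pass when any of the 6 arrays compared was left out (0.0637 to 0.108). Averaged over its probe sets Rab1a gave 0.10 (adjusted p = 0.513).

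The falls were in Rab24, Rab29 and Rab2a. Rab24, an unusual Rab linked to autophagy, had signals of 146, 156 and 184 in wild type, 219.6, 171 and 214 in heterozygous and 121, 132 and 117 in null cells. The null arrays were the lowest, and heterozygous and wild type overlapped. Null lay below heterozygous by -0.65 (SE 0.12, adjusted p = 0.00323), in every fit without 1 array, and the other probe set of Rab24 gave -0.58 (adjusted p = 0.00975 over probe sets). Against wild type Rab24 gave -0.36 and missed the threshold (adjusted p = 0.0609). Rab29, which recruits the kinase Lrrk2 to membranes, had signals of 164, 197 and 172 in wild type, 187, 204 and 195 in heterozygous and 143, 153 and 142 in null cells. The null values were again the lowest, with -0.39 against heterozygous (SE 0.10, adjusted p = 0.0198). It did not pass without heterozygous replicate 2 (0.077) or 3 (0.0511) or null replicate 1 (0.0569) or 3 (0.0672).

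Beside this comparison, heterozygous arrays stood apart in the 18S and Gapdh control probe sets, but not in those of Actb. The 18S ribosomal RNA control nearest the 5′ end read 2548 to 3128 on heterozygous, 907 to 1932 on wild-type and 1338 to 1830.4 on null arrays. The ratio of the 3′ to the 5′ Gapdh control was 6.00 to 6.33 on heterozygous, 6.56 to 7.44 on wild-type and 7.11 to 7.72 on null arrays. For Actb this ratio was 7.48 to 8.45, 7.20 to 10.1 and 7.28 to 8.25 in the same order, and the groups overlapped. Of the mast cell, basophil and eosinophil markers, 3 of 7 were higher in null than in heterozygous cells (Cpa3, Mcpt8 and Hdc), and their summed signal was 4464 to 4955 in heterozygous, 4690.3 to 6948 in wild-type and 5882 to 7996 in null cells. Of the macrophage and dendritic markers 1 of 7 tested was lower, H2-Aa, with sums of 404 to 547, 348 to 492 and 217 to 268 in the same order, and of the B cell markers 1 of 4 tested, Ighm, with sums of 1084 to 1194, 1191 to 1443 and 549.9 to 654. Of the 7 neutrophil markers tested Lcn2 was higher in null than in heterozygous cells, by 2.07, and of the GMP markers Fcgr2b was higher and Csf3r lower. In heterozygous against wild type 3 of 7 neutrophil markers fell (Ltf, Ngp and Lcn2, list median -1.07), and Fcer1a gave -3.11. The summed neutrophil markers were 2646 to 4478 in wild-type, 1974 to 3125 in heterozygous and 1751 to 5076 in null cells. In null against wild type, Epx and Prg2 rose and Fcer1a fell of the 7 mast cell, basophil and eosinophil markers, Ighm and H2-Aa fell too, as did 2 of 3 T and NK cell markers tested (Klrd1 and Nkg7) and 2 of 7 neutrophil markers tested (Ltf and Ngp). Of the stem cell markers 1 of 4 tested rose (Hlf), of the 12 GMP markers 2 rose (Fcgr3 and Fcgr2b) and 1 fell (Csf3r), and of 3 erythroid and 5 megakaryocyte and platelet markers tested 0 were called. The part of these in the Rab values was not tested.

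Rab2a, of transport between ER and Golgi, was the member whose probe sets disagreed in called directions. The brightest, which stood for the gene, had signals of 1095, 1197 and 1148 in wild type, 1312, 1314 and 1213 in heterozygous and 971, 1126 and 1037 in null cells. It was highest in heterozygous cells, gave -0.13 in null against wild type and passed at -0.29 against heterozygous (SE 0.08, adjusted p = 0.0224), though not without heterozygous replicate 1 (0.075) or 2 (0.0865) or null replicate 1 (0.0915) or 3 (0.0654). The next brightest had signals of 649.7, 666 and 706 in wild type, 657, 728 and 793 in heterozygous and 1091, 1112 and 1289.6 in null cells. The next one read 741, 604 and 693, then 643, 653 and 800.0, then 1050.1, 1129.8 and 1067 in the same order. In both, every null value lay above all others.

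In the fit over probe sets, 4 of the 7 Rab2a probe sets rose in null against wild type, by 0.77, 0.67, 0.49 and 0.82 (adjusted p = 0.000131, 0.000791, 0.00905 and 0.00253). The same 4 rose against heterozygous, by 0.59 to 0.67, while the brightest fell. The 2 dimmest gave -0.05 and -0.12 and were not called. Averaged over its probe sets, Rab2a rose by 0.35 over wild type (adjusted p = 0.0095) and by 0.29 over heterozygous (adjusted p = 0.0247). The direction for Rab2a thus turns with the choice of probe set, and where the probes lie on its transcripts was not analysed here.

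Rab11a, the main Rab of recycling endosomes, also had probe sets that differed. The brighter read 568, 648 and 612 in wild type, 622, 562 and 593 in heterozygous and 664, 694 and 647 in null cells, overlapping with wild type, with a difference of 0.13 (adjusted p = 0.312). The other read 335, 281 and 304, then 270.3, 334 and 382, then 462, 610.4 and 612, with the null arrays apart. It rose by 0.84 over wild type and by 0.75 over heterozygous (adjusted p = 0.00122 and 0.00319 over probe sets).

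Over the 102 Rab probe sets tested, 12 rose in null against wild type (11.8%) and 0 fell, beside 5.91% higher and 6.43% lower over 22365 probe sets. The 12 belong to 6 genes, with 4 in Rab2a and 4 in Rab14, so they are not independent of each other. Against heterozygous 13 rose (12.7%) and 4 fell (3.92%), beside 5.3% and 5.54% of all probe sets. Counted by gene, 6 of the 50 Rab genes had a probe set that rose over wild type and 0 had one that fell, beside 8.31% and 9.93% of all genes, and 9 and 3 against heterozygous, beside 7.49% and 8.62%. Of the probe sets standing for the 59 genes, 3 have names ending in _x_at and 2 in _s_at, which on this platform marks probes that can match more than 1 transcript. Rab14 is represented by an _s_at set and Rab38 by an _x_at set, so signal from related sequences cannot be told apart there. This limit also holds for the Rab2a sets that rose by 0.77 and 0.82 over wild type and the dimmer Rab24 set, all _s_at. The brightest Rab2a set and those that rose by 0.67 and 0.49 have neither ending.

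**Figure D3:**
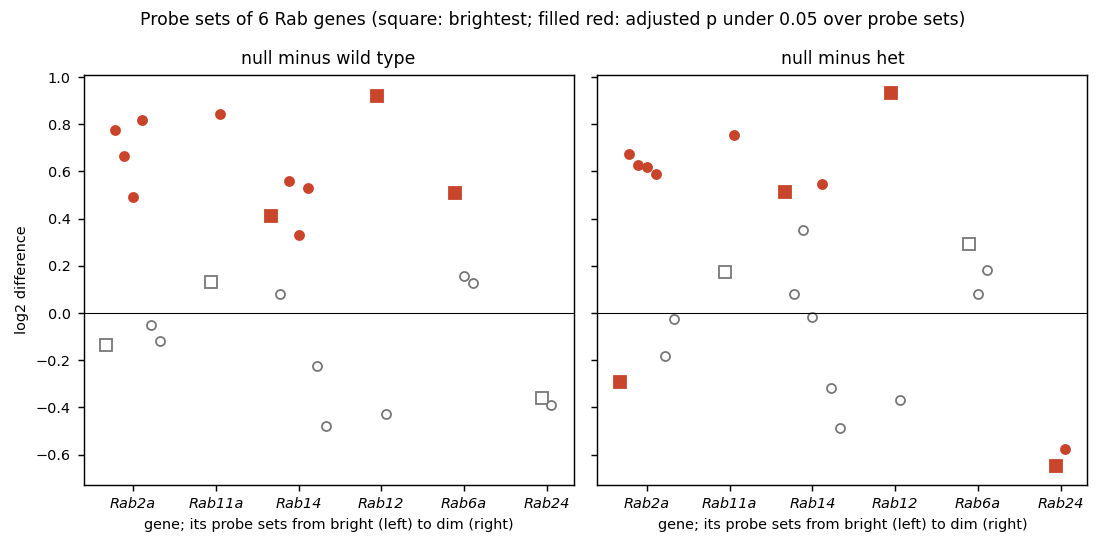
Log2 differences (vertical axis) of every tested probe set of 6 Rab genes, from bright to dim, in null against wild type and null against heterozygous cells, with the brightest as a square and probe sets past an adjusted p of 0.05 in red. For Rab2a the brightest lies below 0 in both panels while 4 others lie at 0.49 to 0.82 and 0.59 to 0.67.

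The other genes of the Rab cycle were followed in 4 lists, beside 7.6% of all genes called higher and 8.09% lower in null against wild type. Of the genes that prenylate, deliver or extract Rabs, 1 of 7 rose in null against wild type, Gdi2, and 0 fell, with a list median of 0.13. Gdi2, which extracts GDP-bound Rabs from membranes, had signals of 4389, 4188 and 3857 in wild type, 4077, 4344 and 4216 in heterozygous and 4978, 4847 and 4716 in null cells, a rise of 0.23 (SE 0.07, adjusted p = 0.0322) with the null arrays highest. It did not pass without wild-type replicates 2 or 3, heterozygous replicate 2 or any null replicate (adjusted p = 0.052 to 0.131).

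Of 42 exchange factor genes tested, 3 rose and 4 fell (median -0.08), beside 7.6% and 8.09% of all genes. Dennd1b, which activates Rab35, had signals of 269.8, 268 and 276 in wild type, 289, 318 and 331 in heterozygous and 583, 412 and 594 in null cells, and rose by 0.92 (SE 0.12, adjusted p = 0.000245). Its null arrays stood apart, and it passed without any 1 array. Ric1, of the complex that activates Rab6, rose by 0.43 and the TRAPP complex subunit gene Trappc10 by 0.31. Trappc6a, another TRAPP subunit, fell by 0.67, Mon1b, of the complex that activates Rab7, fell by 0.49, and Rin3, which activates Rabs of the Rab5 group, fell by 0.49. Ric1 did not pass without wild-type replicates 1 or 3 or null replicate 3 (adjusted p = 0.0724 to 0.124), nor Trappc10 without 7 of the 9 arrays (0.0508 to 0.162, all but wild-type replicate 3 and null replicate 2). Trappc6a did not pass without wild-type replicates 2 or 3 or null replicate 3 (0.0545 to 0.0962), Mon1b without these or heterozygous replicate 2 or null replicate 2 (0.0513 to 0.126), and Rin3 without wild-type replicates 1 or 3 or null replicate 2 (0.052 to 0.0935).

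Of 33 GAP genes tested, 5 rose and 3 fell (median 0.04), beside 7.6% and 8.09% of all genes. Tbc1d8b, which has the TBC domain of Rab GAPs, had signals of 267, 251 and 229.7 in wild type, 205, 235.7 and 232 in heterozygous and 514, 515 and 525 in null cells, and rose by 1.02 (SE 0.09, adjusted p = 7.35e-06). The null arrays agreed closely and lay above every other array. Evi5, a TBC protein linked to Rab11, had signals of 331, 316 and 347, then 357, 357 and 355, then 734, 574 and 587 in the same order, and rose by 0.90 (SE 0.10, adjusted p = 4.48e-05). Tbc1d2b rose by 0.58 (adjusted p = 0.00544). Rabgap1l had signals of 699, 817 and 790.1 in wild type, 901, 944 and 901 in heterozygous and 572, 584 and 453 in null cells, and fell by 0.52 (adjusted p = 0.00335), with the null arrays lowest. Its next brightest probe set fell too, by 0.44 (adjusted p = 0.00919 over probe sets), a dimmer one rose by 0.73 (0.000231) and another gave 0.27 (0.264), so its direction depends on the probe set. Tbc1d23 fell by 0.60 and Tbc1d7, a subunit of the TSC complex, fell by 0.35. The former did not pass without wild-type replicate 2 or null replicate 3 (adjusted p = 0.0676 and 0.083), the latter without any of the 9 arrays (0.0506 to 0.161).

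Of 44 effector genes tested, 5 rose and 0 fell (median 0.06). Fyco1, which links Rab7-bearing vesicles to a kinesin motor, had signals of 111, 104 and 104 in wild type, 98.5, 109 and 91.6 in heterozygous and 291, 215 and 279.7 in null cells, and rose by 1.20 (SE 0.12, adjusted p = 2.61e-05). Only the null arrays were raised. Vps39, a subunit of the HOPS tether of late endosomes and lysosomes, had signals of 115, 133 and 123 in wild type, 276, 225 and 237 in heterozygous and 265, 241 and 230.0 in null cells. It rose by 0.92 in null cells and again by 0.92 in heterozygous cells, each against wild type (SE 0.11, adjusted p = 8.1e-05 and 0.000265), and null against heterozygous gave 0.00. Eea1, the early endosome tether bound by Rab5, had signals of 106, 92.0 and 112 in wild type, 92.5, 93.5 and 93.3 in heterozygous and 157, 133 and 167 in null cells, and rose by 0.51 (SE 0.12, adjusted p = 0.00944). Over the 4 lists together 14 of 126 genes rose and 7 fell, beside 7.6% and 8.09% of all genes.

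**Figure D4:**
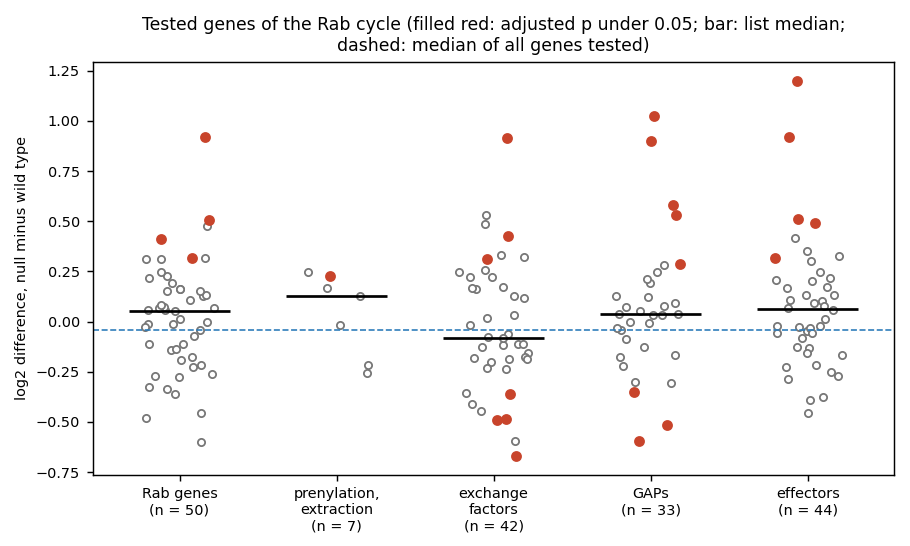
Log2 differences of null against wild-type cells (vertical axis) for the tested Rab genes and the 4 lists of Rab cycle genes, with 1 point per gene, genes past an adjusted p of 0.05 in red, the list median as a bar and the median of all genes tested as a dashed line. The effectors have 5 red points, all above 0, and the exchange factors have 3 above and 4 below.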

How the data were processed

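RNA of 9 sorted samples was measured on Affymetrix arrays, 1 per sample. The deposited intensity values are MAS5 signals, the tool being named in the submitters' processing notes without version or settings. Their 2% trimmed mean was 100 on each array, so a shift common to most transcripts is not visible. Detection calls were not used here, and for arrays their number limits the precision.

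Of 45101 probe sets, 34945 had 1 gene symbol in the platform annotation, and the brightest stood for a gene. Genes were tested where their mean log2(signal + 12) reached the 40th percentile of probe sets, a signal of 8.49. Dim genes' fold changes are understated on this scale. All 9 arrays entered 1 fit with limma 3.58.1 under R 4.3.3 (lmFit, then eBayes with trend), two-sided, adjusted by the Benjamini-Hochberg method over 12347 genes; the fit over probe sets used the same threshold. The script was tested on simulated data. Over the 3 comparisons it called 74% to 82% of 2-fold and 40% to 47% of 1.5-fold changes put in, with 3 to 7 false calls. Changes of these sizes can thus be missed.

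The members, roles and lists, of 145 Rab cycle entries and 75 marker entries, were chosen with earlier results of these data known. Every called Rab gene is named, with relatives and role neighbours, and up to 3 called genes each way per list; other members were named after their values were seen. Alternatives changed pseudocount, filter, normalization, variance prior, arrays, weights, probe sets and replicate block, and left out each array.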

Additional observations from a re-analysis of the deposited data

How the results depend on the processing

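Without the intensity trend, 2 Rab genes rose and 2 fell in null against wild type, and 3 rose against heterozygous. When each gene was taken as the average of its probe sets, 2 rose (Rab2a and Rab11a) and 2 fell (Rab24 and Rab42) against wild type, and Rab2a turned to 0.29 against heterozygous. With the filter at the 60th percentile 2 fell, Rab17 and Rab24. Leaving out 1 array gave 2 to 5 rises and 0 to 1 falls against wild type, and 3 to 7 rises and 1 to 3 falls against heterozygous. Heterozygous against wild type gave 0 calls in every alternative run. Counting a gene when any of its probe sets was called, a choice made after seeing the data, gave 6 rises and 0 falls against wild type (8.31% and 9.93% of all genes), and 9 and 3 against heterozygous (7.49% and 8.62%). The calls of prenylation and extraction genes fell to 0 with no filter, with no trend, with only the compared groups and with averaged probe sets. Exchange factor calls fell from 7 to 4 with no filter, 3 with no trend and 1 with averaged probe sets, GAP calls from 8 to 3 with averaged probe sets, and effector calls from 5 to 3 with no trend. Leaving out 1 array gave 0 to 2, 2 to 7, 5 to 8 and 3 to 5 in these lists. Calls over all genes in null against wild type also fell, from 938 higher and 999 lower in the main fit. They became 756 and 780 with no filter and 609 and 681 with no trend. With only the compared groups they were 785 and 837, and with averaged probe sets 530 and 783. The Rab median ran from -0.01 to 0.06. Rab5a and Rab24 kept their calls against heterozygous in all 20 alternatives, and Rab12 and Rab14 in 19 of 20 in each comparison. Same-numbered arrays correlated at -0.03 to 0.14 in their deviations, so the numbers are not taken as pairs, and with the replicate block 4 Rab genes rose and 0 fell against wild type, and 7 and 3 against heterozygous. Cyclic loess moved the calls of all genes from 938 higher and 999 lower to 1025 and 831 in null against wild type, and the Rab rises to 5.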

Other observations

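Other probe sets of the Rab cycle genes named for null against wild type did not always follow. The second probe set of Evi5 rose by 1.04 (adjusted p = 0.000144 over probe sets), and 1 of 5 other Gdi2 sets by 0.29 (0.0362). The other 4 Gdi2 sets gave 0.14, 0.17, 0.12 and -0.18 and were not called (0.169 to 0.544). A dimmer set of Fyco1 gave -0.30 (0.293), and those of Dennd1b gave 0.10 and 0.21 (0.794 and 0.652), none past the threshold. Dimmer sets of Mon1b and Ric1 gave 0.06 and 0.13 (0.898 and 0.818). Those of Tbc1d23 gave -0.250 and -0.247 (0.365 and 0.399), and none of these was called either.

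The 59 Rab genes lie on 18 chromosomes, with 7 on chromosome 17, among them Rab12, Rab5a and Rab44, and 6 on chromosome 9, among them Rab8b and Rab27a. In the 60 RefSeq windows of 250 bases before their starts, a GC box was found in 66.7%, CCAAT in 40%, CACGTG in 8.33% and TATAAA in 6.67%, beside 32.7%, 33.8%, 6.02% and 12.4% of all 32851 windows, with a median of 15 CG steps beside 6. Windows of the same gene can overlap, and the difference was not tested.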
